A study of Mus musculus with 8 samples.

Results

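Glandular kallikreins are secreted serine proteases encoded by a cluster of closely related genes, and 10 of them were followed here in RNA of the exorbital lacrimal gland (LG): Klk1, Klk1b1, Klk1b3, Klk1b4, Klk1b5, Klk1b9, Klk1b22, Klk1b24, Klk1b26 and Klk1b27. The genes were chosen by symbol, and all 10 were among the 24552 genes of the count table. Female C57BL/6J mice were fed ad libitum (AL, 4 libraries) or received a 40% calorie restriction (CR, 4 libraries) for 4 months and were 10 to 11 months old at collection. The labels name no other treatment and no altered allele, and do not say whether each library came from 1 mouse, so p-values measure the spread between libraries. The study ran a pair of cohorts with different chow, and which cohort gave these libraries is not given in the sources used here. Daily feeding of CR mice shortly before dark is described along with the second cohort, so it may not apply to these libraries.

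Klk1, tissue kallikrein, cuts kininogens and releases kinins, short peptides that act on bradykinin receptors. The other genes encode relatives with narrower substrates. Klk1b4 encodes a relative with no protease activity. Klk1b9, Klk1b22 and Klk1b26 encode proteins that bind or process epidermal growth factor, and the product of Klk1b26 also cleaves prorenin. In mice these proteases are best known from the duct cells of the salivary glands, above all the granular ducts of the submandibular gland, where androgens raise their level.

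All 10 genes lie on the plus strand of chromosome 7 between 43966751 and 44229618 (GRCm38, the build that mm10 names), a span of 263 kb with Klk1 at its distal end. Each has 5 exons in GENCODE vM21. The coding sequences were between 83.4 and 95.1% identical to that of Klk1, with Klk1b5 the closest. Since reads were taken near the 3′ ends of transcripts, the start of exon 5, which also encodes the catalytic serine, shows how far a read can tell the genes apart. The first 75 bases of exon 5, the length of a read, are given for Klk1, for its nearest relative Klk1b5, for Klk1b27 and Klk1b9 as the most counted of the others in CR, and for the inactive Klk1b4. Capitals mark bases that differ from Klk1, and the serine codon tca begins at base 7.
Klk1 (chr7:44229414-44229488): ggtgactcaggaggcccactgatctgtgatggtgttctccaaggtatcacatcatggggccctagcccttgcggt
Klk1b5 (chr7:44220499-44220573): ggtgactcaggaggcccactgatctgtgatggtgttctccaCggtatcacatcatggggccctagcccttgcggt
Klk1b27 (chr7:44056511-44056585): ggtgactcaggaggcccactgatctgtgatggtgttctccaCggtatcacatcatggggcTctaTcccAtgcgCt
Klk1b9 (chr7:43980173-43980247): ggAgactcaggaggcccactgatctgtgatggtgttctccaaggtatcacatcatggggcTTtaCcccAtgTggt
Klk1b4 (chr7:44211550-44211624): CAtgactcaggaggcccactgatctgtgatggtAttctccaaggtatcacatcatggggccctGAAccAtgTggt

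In this stretch Klk1b5 differed from Klk1 at 1 base, Klk1b27 at 5, Klk1b9 at 6 and Klk1b4 at 8, and the codons for the active-site motif of glycine, aspartate, serine, glycine and glycine were found in 9 of the 10 genes, all but Klk1b4. Of the 526 windows of 75 bases in the last 600 bases of the transcript, 18.6% of those of Klk1 and 25.3% of those of Klk1b5 occurred letter for letter in another annotated gene. The share was 12.7% for Klk1b24, 8.6% for Klk1b4, 7.4% for Klk1b27 and 3.2% or less for the other 5. A read from such a window cannot be assigned to 1 gene, so the counts of Klk1, Klk1b5 and Klk1b24 are uncertain to that extent. Klk1 overlaps a pseudogene on the other strand, which does not reach exon 5.

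Of the 10 genes, Klk1 took most reads in every library. Values per library are listed in the order of replicates 1 to 4. Klk1 took 666, 510, 181 and 10 reads in AL and 3139, 5940, 4241 and 294 reads in CR. The other 9 genes together took 2, 2, 6 and 3 reads in AL and 30, 65, 59 and 2 reads in CR. Klk1 thus made up between 96.8 and 99.7% of the reads of these 10 genes in 7 libraries. In AL replicate 4, with 13 such reads in all, its share was 76.9% (95% exact Clopper-Pearson interval 46.2 to 95%). No molecular identifiers were counted, and several reads may stem from 1 molecule. The intervals and floors given here therefore cover counting error only.

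**Figure D1:**
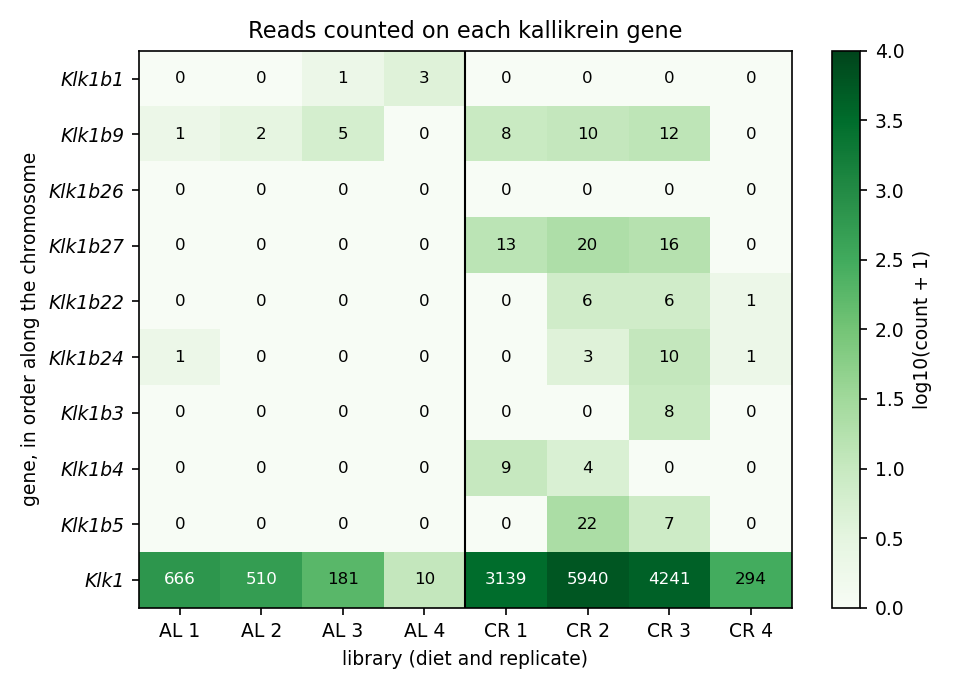
Reads counted on each of the 10 kallikrein genes (rows, in order along the chromosome) in each library (columns, AL left and CR right), coloured by log10(count + 1), with the count printed in each cell. Klk1 carries between 10 and 5940 reads per library, and no other gene exceeds 22.

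As counts per 1000000 reads of the scaled library (CPM), the level of Klk1 was 51.3, 31.3, 13.2 and 0.507 in AL and 222, 352, 263 and 16.3 in CR. CR replicate 4 lay inside the AL range while the other 3 CR libraries stood above every AL library, so the groups overlapped. Within a diet the level varied 101-fold among AL libraries and 21.5-fold among CR libraries. The mean ± SD was 24.1 ± 22.1 CPM in AL and 213 ± 142 CPM in CR (n = 4 each). Since a transcript gives about 1 fragment at its 3′ end whatever its length, levels of different genes can be set side by side, and by mean CPM Klk1 ranked at position 155 of 24552 genes in CR and at position 1992 in AL.

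The log2 fold change of Klk1 between CR and AL was 3.15 (standard error 1.0), or 8.88-fold, with an adjusted p = 0.128 and an unadjusted p = 0.00814 in the quasi-likelihood test of edgeR (Benjamini-Hochberg). Genes count as called where the adjusted p is below 0.05 and the level differs 1.5-fold or more, which Klk1 did not meet. It was the only one of the 10 genes counted often enough for this test. Of all 11211 genes tested, 1.98% were called and 16.7% had an unadjusted p under 0.05. DESeq2 and limma voom with sample quality weights did not call Klk1 either, with adjusted p-values of 0.096 and 0.0765. An exact permutation test of the mean CPM gave a two-sided p of 0.0857, where 0.0286 is the smallest that 4 libraries against 4 allow.

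The call changed with the libraries and the filter used. With no filter the log2 fold change was the same and the adjusted p by edgeR was 0.0405. Leaving out CR replicate 4 gave a log2 fold change of 3.54 ± 0.82 (standard error; edgeR adjusted p = 0.0243), and Klk1 was called. Leaving out any other single library gave values from 2.73 to 3.84, none of them called. AL replicate 4, the lowest of its group, lowered the AL level, and without it the log2 fold change was 2.73. With both of these libraries left out, an alternative chosen after the values were seen, the log2 fold change was 3.12 ± 0.40 (standard error; edgeR adjusted p = 0.000511).

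**Figure D2:**
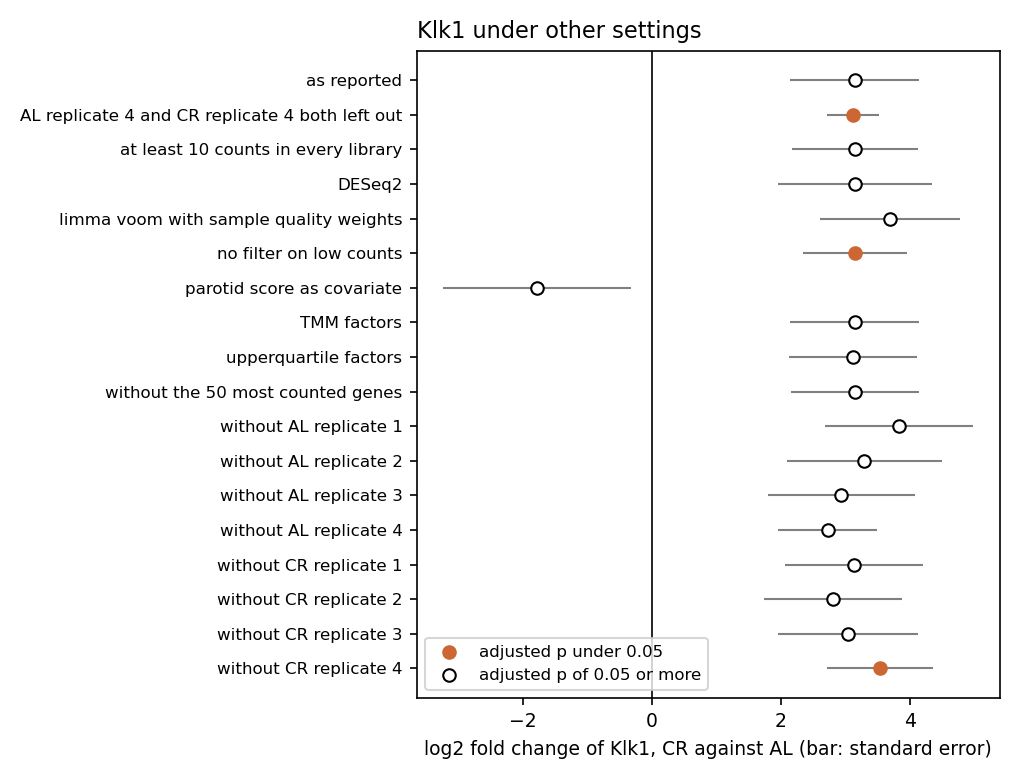
Log2 fold change of Klk1 between CR and AL (horizontal axis, bars show the standard error) as reported and under 17 other settings of the analysis (rows), with filled points where the adjusted p was under 0.05. The values lie between 2.73 and 3.84 in every setting but the one that includes a score of parotid gland transcripts (parotid score), at -1.78.

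The remaining genes were at the edge of detection, where the floor of 3 counts in a library equals 0.152 to 0.231 CPM. Klk1b27 had 0 reads in all AL libraries and 13, 20, 16 and 0 reads in CR. These are 0.920, 1.18, 0.991 and 0 CPM. Against the floor of 3 counts over the AL group (0.0478 CPM), the pooled CR level of Klk1b27, 0.752 CPM, was 15.7-fold higher. Without its most counted CR library it was 12.6-fold higher. These folds are not lower bounds. The 95% exact Poisson intervals reach up to 0.0588 CPM in AL and down to 0.556 CPM in CR. Pooling also hides the spread between libraries, as CR replicate 4 had 0 reads. The exact permutation test, two-sided, gave p = 0.143. Klk1b27 was counted often enough for the test across genes in some fits only. It was called without CR replicate 4 (adjusted p = 0.0087 by edgeR) and without replicate 4 of both diets (0.012). It was not called when any AL library was left out (0.122 to 0.167) or with no filter on low counts (0.0519).

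Klk1b9 was the only one of the 9 minor genes with reads on both diets in more than 1 library each, with 1, 2, 5 and 0 reads in AL and 8, 10, 12 and 0 reads in CR. Over each group this is 0.128 CPM (95% exact Poisson interval 0.0551 to 0.251) in AL and 0.460 CPM (0.311 to 0.657) in CR. The intervals do not meet, but across libraries the difference did not pass the test (exact permutation test, two-sided p = 0.143). CR replicate 4 had no read of Klk1b27 or Klk1b9, and neither had AL replicate 4.

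Klk1b3 had 8 reads, all in CR replicate 3, and the inactive Klk1b4 had 9 and 4 reads in CR replicates 1 and 2. Klk1b5 had 22 and 7 reads in CR replicates 2 and 3. None of these 3 genes had a read in AL. Klk1b22 had 6, 6 and 1 reads in CR replicates 2, 3 and 4, and 0 in AL. Klk1b24 had 1 read in AL and 14 in CR, of which 10 were in CR replicate 3. Klk1b1 ran the other way, with 4 reads in AL and 0 in CR. Klk1b26, the gene of the prorenin-cleaving enzyme, had 0 reads in all 8 libraries, which allows a level of up to 0.0478 CPM over the AL group at a floor of 3 counts. Exact permutation tests of these genes but Klk1b26, two-sided and without adjustment, gave p-values between 0.143 and 1. The edgeR fit with no filter on low counts gave Klk1b5, Klk1b22 and Klk1b4 unadjusted p-values of 0.0124, 0.029 and 0.0341, and none of these genes passed after adjustment (adjusted p from 0.179 to 0.47).

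**Figure D3:**
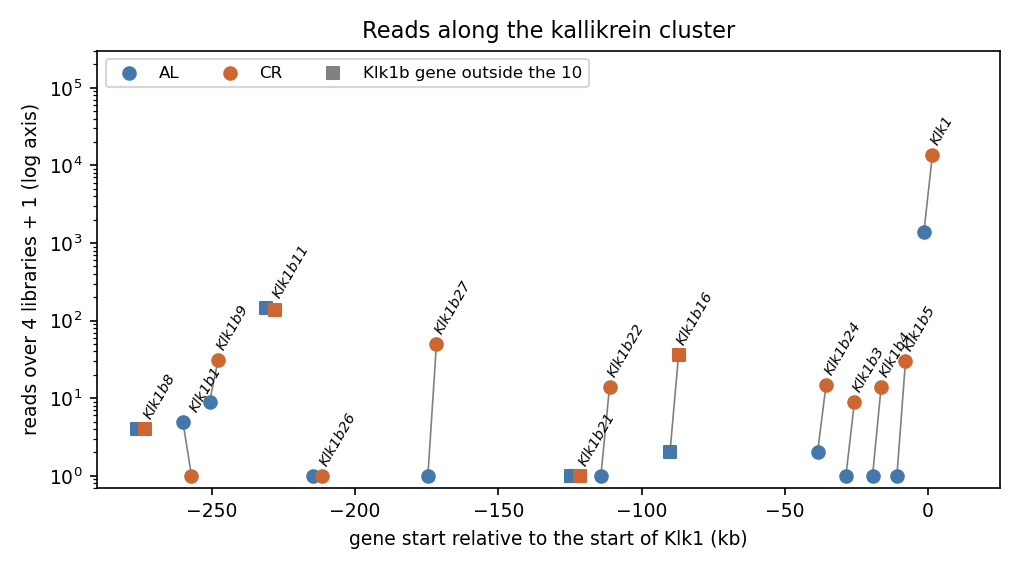
Reads over the 4 libraries of each diet plus 1 (log axis) against the position of each gene's start relative to the start of Klk1 in kb, with AL points moved 1.5 kb to the left and CR points to the right. Circles are the 10 genes and squares are 4 further Klk1b genes of the cluster, of which Klk1b11 has 144 reads in AL and 135 in CR.

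The cluster holds 4 more Klk1b genes in the table, Klk1b8, Klk1b11, Klk1b16 and Klk1b21. Klk1b11 was the most counted gene of the cluster after Klk1. Its level was 0.771, 3.86, 0.802 and 3.04 CPM in AL and 1.06, 2.13, 2.35 and 2.55 CPM in CR. The ranges overlapped, and the log2 fold change was -0.08 ± 0.55 (standard error; edgeR adjusted p = 0.971). Its sign changed under some settings. AL replicate 4 had 3.04 CPM of Klk1b11 and 0.507 CPM of Klk1, the only library in which Klk1 was the lower of this pair. None of its 3′ windows occurred in another annotated gene. Klk1b16 had 1 read in AL and 3, 15, 17 and 0 reads in CR (two-sided exact permutation p = 0.143).

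The annotated promoters of Klk1 and Klk1b27, the genes with the most reads in CR among the 10, are given from 250 bases before to 50 bases after the start (RefSeq, GRCm38.p6, plus strand), with TTTAAA in capitals.
Klk1 (chr7:44225110-44225409): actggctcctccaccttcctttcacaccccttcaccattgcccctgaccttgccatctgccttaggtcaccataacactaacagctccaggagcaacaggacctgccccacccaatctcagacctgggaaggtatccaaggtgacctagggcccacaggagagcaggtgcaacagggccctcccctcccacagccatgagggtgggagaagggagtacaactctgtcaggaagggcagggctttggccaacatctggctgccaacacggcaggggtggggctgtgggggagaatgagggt
Klk1b27 (chr7:44052040-44052339): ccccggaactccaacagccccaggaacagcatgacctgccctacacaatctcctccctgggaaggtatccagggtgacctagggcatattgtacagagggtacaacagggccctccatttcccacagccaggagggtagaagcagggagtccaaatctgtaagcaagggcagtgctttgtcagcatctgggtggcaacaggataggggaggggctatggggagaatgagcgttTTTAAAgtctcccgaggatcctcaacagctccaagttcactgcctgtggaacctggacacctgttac

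TTTAAA, searched on both strands, occurred in the window of each gene but Klk1, 9 of the 10, against 13.2% of all 32851 promoter windows of this length. In those 9 genes it lay 68 or 69 bases before the start of the coding sequence. In Klk1 the annotated start lies further upstream, and the same letters, 68 bases before the coding sequence, begin just past the end of the window. TATAAA occurred in none of the 10 windows (13.6% of all), and TGTTCT, a core sequence of steroid hormone response elements, in those of Klk1b3 and Klk1b24 (19.0% of all). The 10 genes are close relatives, so their windows are not independent of each other. Whether these letters bear on the level of the genes was not tested.

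LG transcripts were abundant. All 6 genes of a lacrimal list were counted in every library, among them Pax6, a transcription factor needed to form the LG, at between 25.1 and 89.1 CPM, and Obp1a, an odorant-binding protein of tears and the most counted of the list, at between 59000 and 163000 CPM. None of the 6 was called, while 5 had negative or zero and 1 a positive log2 fold change (median -0.55). Obp1b, named after its values were seen, had a log2 fold change of -1.85 and was lower in every CR library than in any AL library (exact permutation test, two-sided p = 0.0286, unadjusted). Their summed level was between 205000 and 242000 CPM in AL, 103000, 83200 and 71600 CPM in CR replicates 1 to 3 and 199000 CPM in CR replicate 4.

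Transcripts abundant in the parotid gland, a salivary gland, were higher on average in CR, as Klk1 was. All 8 genes of a parotid list were tested and had higher means in CR (median log2 fold change 4.01, and 0.01 over all genes tested). Of them 3, Prb1, Prh1 and Prp2, were called, against 1.98% of all genes tested. The summed level of the 8 genes was 42200, 43300, 30000 and 13800 CPM in AL and 298000, 305000, 246000 and 56500 CPM in CR. Car6 and Dnase1 made up most of the sum in AL replicate 4, at 11800 and 1780 CPM. Car6 varied less than Bpifa2, with 16900, 28500, 19400 and 11800 CPM in AL and 82800, 67400, 59100 and 36500 CPM in CR. Bpifa2, a secreted salivary protein and the most counted of the list, had 17700, 9820, 7920 and 190 CPM in AL and 168000, 165000, 151000 and 13700 CPM in CR. AL replicate 4 and CR replicate 4 were the lowest of their groups for Bpifa2 as for Klk1. Over the 8 genes, AL replicate 4 was lowest or tied for lowest in 7, all but Dnase1, and CR replicate 4 was lowest in 5. The 3 called genes were lowest in CR replicate 3, where Klk1 was at 263 CPM, so they did not follow the order of Klk1 among the CR libraries. A lower share of a cell type and less RNA per cell cannot be told apart in bulk RNA.

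**Figure D4:**
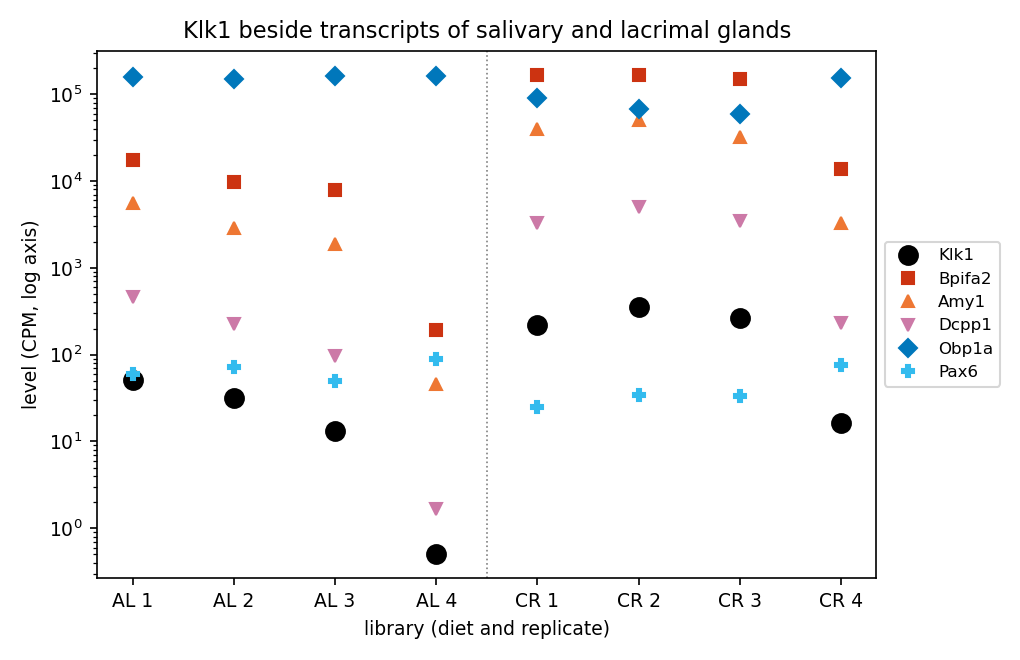
Level in CPM (log axis) of Klk1, of the salivary transcripts Bpifa2, Amy1 and Dcpp1 and of the LG transcripts Obp1a and Pax6 in each library. Klk1 spans 0.507 to 352 CPM and is lowest in AL replicate 4, as are Bpifa2, Amy1 and Dcpp1, while Pax6 is highest there.

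The 5 genes whose log2 CPM was most like that of Klk1 over the 8 libraries, among 11210 compared, were Dcpp1, Chia1, Amy1, Bpifa2 and Pax9, with Pearson correlations of 0.9947, 0.9931, 0.9922, 0.9872 and 0.987. These are descriptions over libraries that share the diet difference and the low values of AL replicate 4 and CR replicate 4, and no test was made. Dcpp1 encodes demilune cell and parotid protein, Chia1 an acidic chitinase, Amy1 the salivary amylase, and Pax9 a transcription factor. While Klk1 spanned a 693-fold range and Bpifa2 an 884-fold range, the level of Klk1 per 1000 CPM of Bpifa2 stayed between 1.19 and 3.19. It was 2.89, 3.19, 1.67 and 2.67 in AL and 1.32, 2.13, 1.74 and 1.19 in CR (two-sided exact permutation p = 0.0857). Per 1000 CPM of Dcpp1, Klk1 had 111, 140, 138 and 303 in AL and 67.0, 69.5, 75.1 and 70.5 in CR. Here every AL library lay above every CR library (exact permutation p = 0.0286, two-sided, 0.0572 adjusted over the 2 ratios, which were chosen after the values were seen).

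A parotid score was taken as the average of log2 CPM over the 8 parotid genes. It was between 3.78 and 8.29 in AL and between 10.13 and 13.32 in CR. After the score entered the model, the log2 fold change of Klk1 was -1.78 (standard error 1.46, adjusted p = 0.702 by edgeR). Because the score does not overlap between the diets, its part in the difference and that of the diet cannot be told apart.

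Genes listed for the submandibular and sublingual glands gave a mixed picture. Smgc, which marks the submandibular gland of newborn and female mice, had 0 reads. Among the 4 other genes not tested, named after their values were seen, Smr2 and Muc19 had 1 and 3 reads in all, while Prol1 had 13 reads in AL and 204 in CR, and Crisp3 had 16 and 208. For Prol1 and Crisp3 every CR library exceeded every AL library (exact permutation test, two-sided p = 0.0286 each, unadjusted). Smr3a, Dcpp1 and Dcpp2 were tested and not called, with adjusted p-values of 0.0734, 0.112 and 0.0508 by edgeR. Smr3a had 4470, 1800, 1720 and 78.1 CPM in AL and 33100, 53200, 22700 and 4770 CPM in CR, also without overlap, while the groups overlapped for Dcpp1 and Dcpp2. Ren1, which encodes renin, also had 0 reads. Mucl2, the most counted gene of the list, had 157000, 135000, 102000 and 154000 CPM in AL and 65900, 60100, 58100 and 142000 CPM in CR. Its log2 fold change was -0.75 (adjusted p = 0.586 by edgeR). Among the CR libraries it was highest in replicate 4, as Obp1a was, while the other tested genes of this list were lowest there. Which gland Mucl2 marks in these libraries was not tested. Of the 5 genes tested, 4 had higher means in CR. Only 1, Dcpp3, was called (log2 fold change 5.04, standard error 1.11, adjusted p = 0.0423 by edgeR). Over all genes tested, 1.98% were called. Dcpp3 lost its call in 6 of the 8 fits that each left out 1 library, all but those without AL replicate 4 or CR replicate 4, and its log2 fold change was 0.73 (adjusted p = 0.922 by edgeR) after the parotid score entered the model. Without Mucl2 the summed level was 4960, 2040, 1820 and 80 CPM in AL and 36700, 58900, 26800 and 5030 CPM in CR, again lowest in replicate 4 of each diet. The part of these transcripts in the Klk1 difference was not tested.

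Kallikrein works in a system of substrates, receptors and kinin-degrading enzymes, and of 16 such genes listed here 6 had 0 reads in all libraries. These were both kininogen genes, Kng1 and Kng2, the bradykinin receptor gene Bdkrb2, the coagulation factor genes F11 and F12, and Serpina5, which encodes a protease inhibitor. Bdkrb1, the other bradykinin receptor, had 0 reads in AL and 12 in CR, and Klkb1, plasma kallikrein, had 50 reads in AL and 72 in CR. Of the 6 genes tested, 1 was called higher and 0 lower, with a median log2 fold change of 0.19, where 1.98% of all genes tested were called.

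The called gene was Cpm, which encodes carboxypeptidase M, a membrane enzyme that trims kinins at their carboxyl end. Its level was 1.85, 3.37, 1.38 and 2.08 CPM in AL and 15.5, 25.4, 10.6 and 3.11 CPM in CR, and as for Klk1, CR replicate 4 lay inside the AL range. The log2 fold change was 2.64 ± 0.52 (standard error; edgeR adjusted p = 0.0291). It was no longer called when any library but CR replicate 4 was left out, with adjusted p-values up to 0.109 by edgeR, and it was 0.94 after the parotid score entered the model.

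Ace, angiotensin-converting enzyme, which also inactivates bradykinin, had 2.85, 5.70, 2.19 and 5.43 CPM in AL and 7.36, 10.7, 8.73 and 13.1 CPM in CR. Every CR library exceeded every AL library, and CR replicate 4 had the highest level, unlike for Klk1. The log2 fold change was 1.29 ± 0.33 (standard error; edgeR adjusted p = 0.0666), so Ace was not called, while it was called by DESeq2 (adjusted p = 0.00797) and by edgeR with no filter on low counts (adjusted p = 0.0313). After the parotid score entered the model the value was 2.16 (adjusted p = 0.376 by edgeR). Serping1, the C1 inhibitor that also restrains plasma kallikrein, averaged 34.5 ± 10.6 CPM in AL against 20.1 ± 2.86 CPM in CR (mean ± SD, n = 4 each; log2 fold change -0.78, adjusted p = 0.0987 by edgeR). The peptidases Mme and Ece1 had log2 fold changes of -0.29 and -0.23 and were not called. Spink5, an inhibitor of kallikrein-related peptidases, had reads in 3 libraries, and Cpn1 had 5 reads in all.

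**Figure D5:**
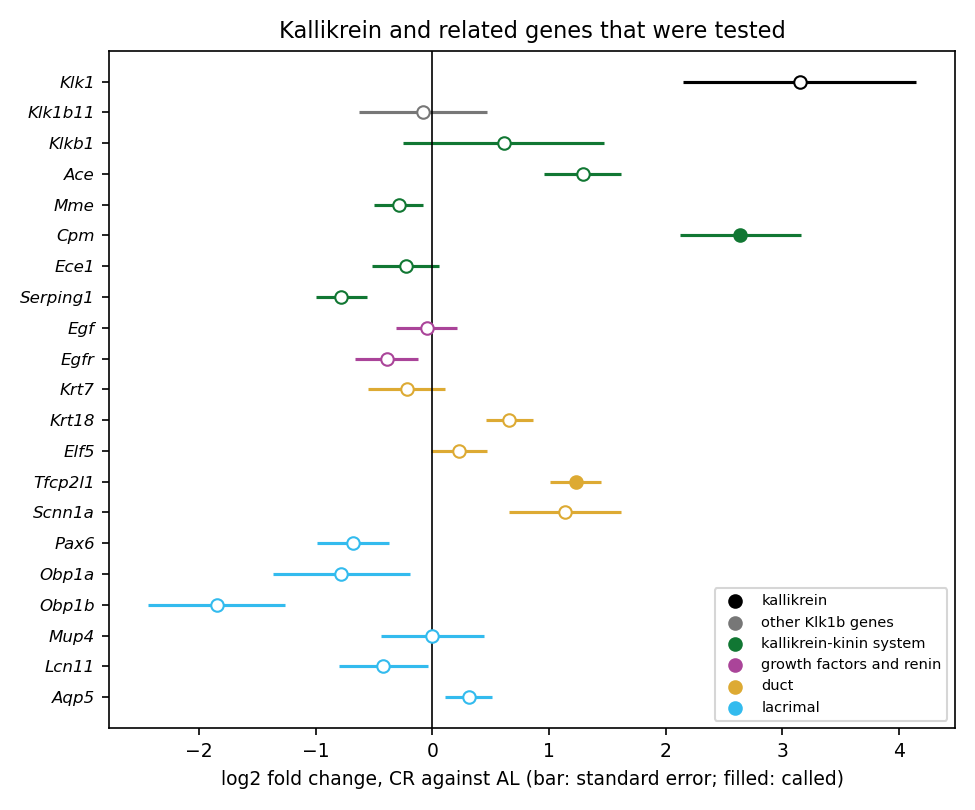
Log2 fold change between CR and AL with its standard error for Klk1 and the tested genes of 5 other lists, coloured by list and filled where called. Cpm at 2.64 and Tfcp2l1 at 1.23 are filled, and Klk1 at 3.15 is open with a standard error of 1.0.

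Among the growth factors that certain kallikreins bind or process, Egf was counted in every library. Its level was 11.9, 13.2, 12.1 and 16.4 CPM in AL and 8.49, 18.1, 9.10 and 16.2 CPM in CR, and the groups overlapped (log2 fold change -0.05, standard error 0.26, adjusted p = 0.958 by edgeR). Its receptor gene Egfr had a log2 fold change of -0.39 (adjusted p = 0.515 by edgeR). Tgfa, another ligand of that receptor, had 7 reads in AL and 25 in CR, and Ngfr had 31 and 24 reads. Neither of the 2 genes tested, Egf and Egfr, was called.

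Kallikreins are made by duct cells, and of 8 duct genes 5 were tested. Tfcp2l1, a transcription factor of salivary and renal ducts, was called, with 21.3, 35.0, 31.3 and 22.9 CPM in AL and 63.2, 55.5, 88.7 and 51.6 CPM in CR. The lowest CR library, replicate 4, still exceeded the highest AL library (log2 fold change 1.23, standard error 0.22, adjusted p = 0.0205 by edgeR). Leaving out AL replicate 1 or CR replicate 3 ended the call, and after the parotid score entered the model the value was 1.27 (adjusted p = 0.456 by edgeR). Krt18, a keratin of simple epithelia and the most counted of the list, averaged 94.1 ± 15.7 CPM in AL against 149 ± 29.7 CPM in CR (mean ± SD, n = 4 each; log2 fold change 0.66, adjusted p = 0.109 by edgeR). Scnn1a, Elf5 and Krt7 had log2 fold changes of 1.14, 0.23 and -0.22 (adjusted p = 0.251, 0.702 and 0.814 by edgeR). Of the 5 duct genes tested, 4 had a positive and 1 a negative log2 fold change (median 0.66, and 0.01 over all genes tested). None but Tfcp2l1 was called, where 1.98% of all genes tested were called. Among those not tested, Krt19 had 19 reads in AL and 14 in CR, Ascl3 4 and 21, and Foxi1 0 and 10.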

How the data were processed

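LG RNA of 4 AL and 4 CR libraries was sequenced from transcript 3′ ends (Lexogen QuantSeq). The authors used cutadapt for trimming, STAR for alignment (mm10) and HTSeq for the raw counts per gene that they deposited. Tool versions, strand and overlap settings are not given in the sources used here. The deposited log2 values equal log2 of the count over the DESeq2 size factor plus 1 (largest difference 0) and were not used. After dropping 5 repeated symbols, 24552 genes remained, and libraries held 12051881 to 22156511 counts. The 11211 genes passing filterByExpr were tested with edgeR 4.0.16 (RLE factors, quasi-likelihood F test, Benjamini-Hochberg adjustment) in R 4.3.3. Genes counted too rarely were compared by exact permutation tests of CPM, two-sided, unadjusted. Members and lists were chosen with earlier results of these data known. Named are the 10 members, the called and most counted genes of each list, and, for the kinin, growth factor and Klk1b lists, genes above 3 counts in a library, besides the 5 genes most like Klk1 and listed genes at 0. Other genes of the tissue lists (Pax6, Obp1b, Dnase1, Car6, Smr2, Smr3a, Muc19, Prol1, Crisp3, Dcpp2, Scnn1a, Elf5, Krt7, Krt19, Ascl3, Foxi1) were named after their values were seen. Windows and positions came from GENCODE vM21, promoters from RefSeq, and alignments from Biopython 1.88. Alternatives were other scaling factors (TMM, upper quartile), DESeq2 1.42.0, limma 3.58.1 voom with sample quality weights, no filter, at least 10 counts in every library, a replicate block, a parotid covariate, leaving out each library or the 50 most counted genes, and no fold-change threshold. Leaving out replicate 4 of both diets was added later. The pipeline was tested on simulated data. Some genes are not reported here.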

Additional observations from a re-analysis of the deposited data

Results flagged for a closer look

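Among genes described in the text with more than 3 counts in a library, 79 sets of 4 libraries were searched, 1 per diet and gene. In these, 13 single libraries lay far from the other 3, by a gap past Dixon's 95% critical share of the range. For independent, normally distributed values chance gives about 1 in 20. The CPM were not logged and the sets share libraries, so that rate is only a rough guide. In 5 of the 13 the other 3 libraries were at 0, which meets the criterion whatever the count, so that rate does not apply to them. Klk1b3 was at 0.495 CPM in CR replicate 3 and at 0 in the other CR libraries. Likewise a single library held all the reads of its diet for Spink5 in CR (1.42 CPM, replicate 3), Cpn1 in AL (0.203 CPM, replicate 4) and Klk14 in AL (0.292 CPM, replicate 3) and in CR (0.889 CPM, replicate 4). In CR replicate 4, Bpifa2 was at 13700 CPM against 151000 to 168000, Chia1 at 653 against 12500 to 13900, Mucl2 at 142000 against 58100 to 65900, Obp1b at 38800 against 9980 to 14000, and Ece1 at 12.2 against 6.22 to 7.16 CPM. Obp1b was at 40500 CPM in AL replicate 3, against 72300 to 75500 CPM. Prp2 was at 1.23 CPM in AL replicate 1, against 0.146 or less in the other AL libraries, and at 922 CPM in CR replicate 2, against 20.7 to 138 CPM. Klk1 itself was not among them on either diet.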

How the results depend on the processing

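The log2 fold change of Klk1 was positive in 17 of 18 alternatives and past the thresholds in 4. It was 3.15 without a filter on low counts, 3.55 with a replicate block and 3.12 without replicate 4 of both diets, and -1.78 after the parotid score entered the model. It ranged from 2.73 to 3.84 when 1 library was left out. The number of kallikrein genes called, 0 as reported, was 1 without a filter and 1 with the block, both times Klk1, 2 without replicate 4 of both diets (Klk1 and Klk1b27), and 0 to 2 when 1 library was left out. The number of all genes called, 222 as reported, was 702 with DESeq2, 397 with limma voom, 436 without a filter, 700 with the block, 656 without replicate 4 of both diets, 3 with the parotid score and 61 to 700 when 1 library was left out, and the cause was not tested. Same-numbered libraries deviated together with correlations of 0.15, 0.08, 0.24 and 0.46, and AL replicate 3 correlated best with CR replicate 1, so the block was not taken as a pairing. Ace was called with the block (1.36, adjusted p = 0.00672 by edgeR). Klk1b11, at -0.08, was 1.47 with the parotid score, 0.14 with the block, 0.01 without replicate 4 of both diets and -0.35 to 0.37 when 1 library was left out. Egf, at -0.05, was 0.17 with the parotid score and -0.24 to 0.12 when 1 library was left out. With 3 counts as the floor, depth limits each of the 10 kallikreins but Klk1.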

Other observations

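Outside the Klk1 cluster proper, 12 kallikrein-related peptidase genes, Klk4 to Klk15, which act mainly in skin, teeth and brain, were nearly silent. Of these, 8 had 0 reads in all libraries, and none was counted often enough to be tested. The most counted, Klk14, had 4 reads in AL and 16 in CR, the latter all in CR replicate 4, where Klk1 was lowest among the CR libraries.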
